A study of Mus musculus with 8 samples.

Results

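The BCL2 family genes described here encode proteins that hold back or start the mitochondrial route of programmed cell death. The 10 members were taken by gene symbol from a table of 17384 genes, and all 10 had a row and passed the filter on low counts. They fell into 4 survival genes (Bcl2, Bcl2l1, Bcl2l2 and Mcl1), 4 BH3-only genes (Bcl2l11, Pmaip1, Bbc3 and Bid) and 2 effector genes (Bax and Bak1). RNA was sequenced from B220+CD3+ spleen cells of EAF2Faslpr mice, which the series' design text writes as Eaf2-/-Faslpr, and of Faslpr mice, with 4 libraries each. Both groups carried Faslpr, a mutation of the death receptor gene Fas, under which T cells that bear the B220 form of CD45 build up. The groups thus differed by Eaf2, which encodes a factor bound to the ELL transcription elongation proteins, on a shared Fas-mutant background. The labels state neither age nor sex, nor which part of Eaf2 was deleted, nor whether each library came from a separate animal, so the p-values below rest on how far these samples differ among themselves, and that spread may be technical.

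Survival proteins of the family bind and hold the effectors BAX and BAK and the BH3-only proteins. BH3-only proteins sense stress, loss of growth factor or DNA damage, and when they outweigh the survival proteins BAX and BAK open the outer mitochondrial membrane and release cytochrome c. In lymphocytes BCL2 and BIM (encoded by Bcl2l11) are known as an opposed pair in resting cells, and NOXA (encoded by Pmaip1) binds MCL1 with preference. Mice that overexpress BCL2 or lack BIM accumulate lymphocytes, and BIM and FAS are known to act jointly in removing T cells.

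Each library held between 15.6 and 18.6 megareads, so that 3 reads, taken as the floor, equalled 0.161 to 0.193 counts per megaread (CPM). Eaf2 was measured at 4.43, 4.2, 4.02 and 6.29 CPM in the EAF2Faslpr libraries, against 25.7, 24.2, 20.7 and 31.5 CPM in the Faslpr libraries (exact two-sided permutation test over 70 orderings, p = 0.0286, the smallest it allows). The CD3 chain genes Cd3e, Cd3d and Cd3g were high in every library, from 247 CPM upwards, and Ptprc, the gene of CD45, averaged 2312 ± 114 CPM in EAF2Faslpr and 1989 ± 311 CPM in Faslpr libraries (SD, n = 4 each). Fas, mutated in both groups, averaged 64.2 ± 6.87 CPM in EAF2Faslpr and 54.3 ± 9.82 CPM in Faslpr libraries (adjusted p = 0.276, edgeR; 0.0415 without Faslpr replicate 4). B cell markers moved with the groups. Of 16 such genes 14 rose and 0 fell by edgeR's quasi-likelihood test at an adjusted p under 0.05 (15 had an unadjusted p under 0.05), and their summed level spanned 517 to 934 CPM in EAF2Faslpr and 279 to 343 CPM in Faslpr libraries. Over all 12340 genes tested by edgeR, 7.14% rose and 4.96% fell, and 3070 had an unadjusted p under 0.05. The B cell genes Ms4a1 and Pax5 were above 0 in all libraries. Of the other lists, 2 of 10 T cell markers rose (3997 to 4273 CPM summed in EAF2Faslpr, 3688 to 4449 CPM in Faslpr), 3 of 9 macrophage markers rose (61.1 to 154 CPM in EAF2Faslpr, 47.4 to 60.2 CPM in Faslpr) and 1 of 6 plasma cell markers fell (687 to 846 CPM in EAF2Faslpr, 857 to 975 CPM in Faslpr). None of the 4 neutrophil markers tested (13.7 to 78.5 CPM in EAF2Faslpr, 12.6 to 17.3 CPM in Faslpr) or of the 3 dendritic cell markers passed by edgeR, DESeq2 or limma-voom, and 3 of the neutrophil and 0 of the dendritic markers had an unadjusted p under 0.05 by edgeR. DESeq2 gave an adjusted p for 2 of the neutrophil markers. The part of these other cells' RNA in the results below was not tested. In bulk samples of sorted cells, fewer cells of a type and less RNA per cell cannot be told apart.

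Of the 10 members, 1 rose and 2 fell in EAF2Faslpr cells by edgeR's quasi-likelihood test, with an adjusted p under 0.05 over all 12340 genes tested. The background was 7.14% of tested genes higher, 4.96% lower and 12.1% in either direction. Pmaip1 rose 1.86-fold, Bcl2 was 1.46-fold lower and Bcl2l2 1.84-fold lower, while Mcl1, Bcl2l1, Bcl2l11, Bbc3, Bid, Bax and Bak1 gave no call. The members' median log2 fold change was −0.20, beside −0.01 over all genes tested. DESeq2 (15.4% of genes called) and limma-voom (12% of genes called) called the same 3 members. In 3 members the CPM ranges of the groups lay apart, Pmaip1 on the higher side and Bcl2 and Bcl2l1 on the lower side, beside 9.71% of tested genes apart on the higher side, 7.96% on the lower side and 17.7% on either side.

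**Figure D1:**
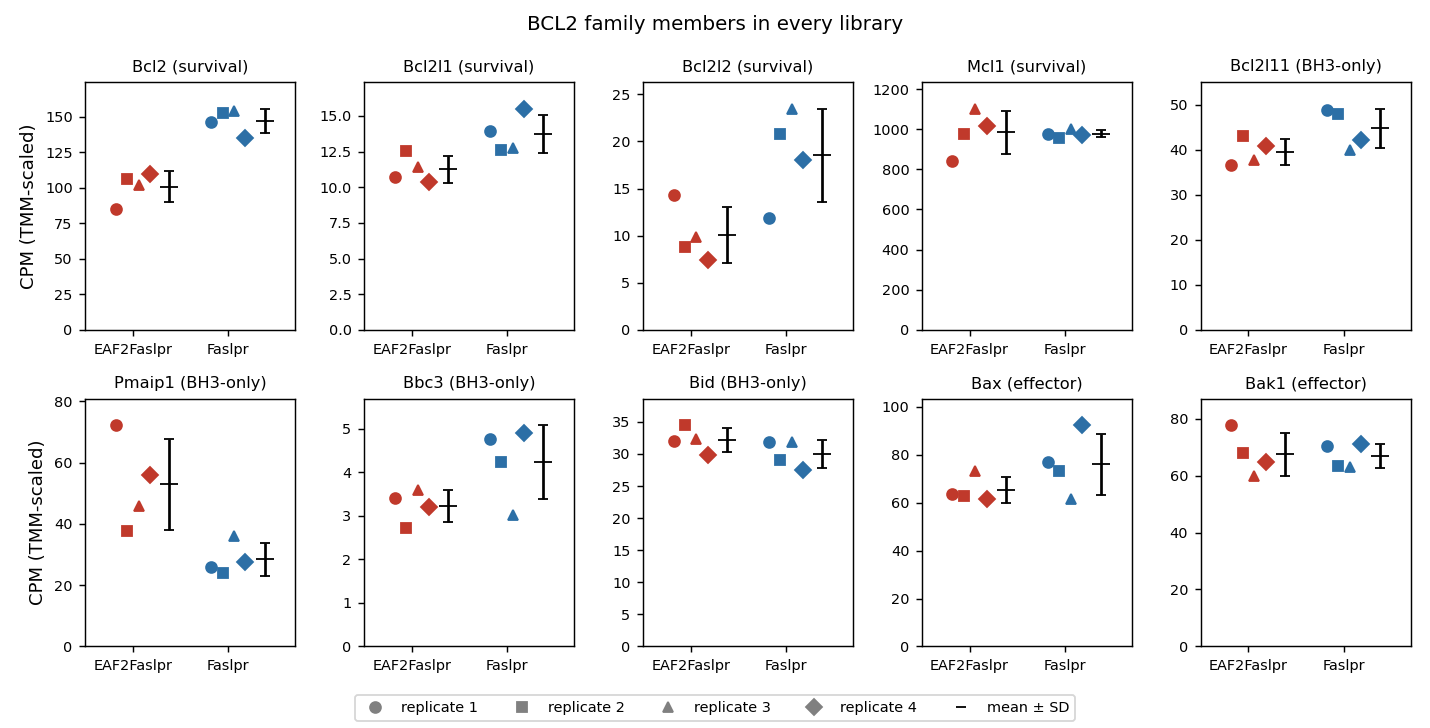
CPM of the 10 members in each of the 4 EAF2Faslpr (red) and 4 Faslpr (blue) libraries, with 1 symbol per replicate number and the mean ± SD beside each group. The groups are apart for Bcl2 (up to 109.6 CPM in EAF2Faslpr, from 135 CPM in Faslpr) and Pmaip1 (from 37.6 CPM in EAF2Faslpr, up to 36.0 CPM in Faslpr), narrowly apart for Bcl2l1, and mixed for the others.

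Upstream sequence is shown for Bcl2 and Bcl2l2, the survival genes that fell, so that the regions ahead of their starts can be set side by side. The stretches are the bases before the annotated start that no RefSeq or GENCODE transcript of the gene covers, from RefSeq on build GRCm38.p6 (the counts were made on GRCm39, so the coordinates belong to the sequence only). Bcl2 lies on chromosome 1, minus strand, chr1:106714291-106714540, and Bcl2l2 on chromosome 14, plus strand, chr14:54883175-54883365. Capitals mark the letters TGACG, the core of the element bound by CREB and ATF proteins.
Bcl2: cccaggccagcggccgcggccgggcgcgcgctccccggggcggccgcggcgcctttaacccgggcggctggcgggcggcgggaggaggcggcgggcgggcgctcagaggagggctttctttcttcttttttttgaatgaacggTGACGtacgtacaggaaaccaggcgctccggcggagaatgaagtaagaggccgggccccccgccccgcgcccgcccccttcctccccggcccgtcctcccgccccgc
Bcl2l2: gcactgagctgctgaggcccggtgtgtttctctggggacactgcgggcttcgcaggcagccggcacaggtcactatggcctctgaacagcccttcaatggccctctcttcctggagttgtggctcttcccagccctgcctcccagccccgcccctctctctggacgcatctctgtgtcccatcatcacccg

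Both strands were searched for TGACG, for the AP-1 element TGANTCA, for the FOXO element GTAAACA and for the STAT element TTCNNNGAA, of which no 2 overlapped in these stretches. Among all 32851 annotated windows of 250 upstream bases, 17.8% held TGACG, 6.75% the AP-1, 3.17% the FOXO and 7.02% the STAT letters. Bcl2 held TGACG 1 time and none of the others, and Bcl2l2 held none of the 4 in these letters. Chromosome 18, which carries Pmaip1, was left out of the search, so nothing is said of that member. Of the 14 windows searched for the other 9 members, 1 window of Bbc3 also held TGACG, and 1 window each of Bcl2l11 and Bbc3 held the FOXO letters. In the Bbc3 windows with a match all 250 bases lay within annotated transcribed sequence, and in that of Bcl2l11 0 did. All 250 also did in the remaining Bbc3 and Bcl2l11 windows and in those of Bak1, Bcl2l1 and Mcl1. For Bid 238 did. The lack of a match in Bak1, Bcl2l1, Mcl1 and Bid thus describes little or no untranscribed upstream sequence. A match is a description of the letters and not evidence of binding.

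Bcl2 (gene 12043), the founding survival gene, was measured at 85.0, 106, 102 and 109.6 CPM in EAF2Faslpr replicates 1 to 4, against 146, 152, 154 and 135 CPM in Faslpr replicates 1 to 4. All EAF2Faslpr libraries lay below all Faslpr libraries, and the lowest of all was EAF2Faslpr replicate 1. The log2 fold change was −0.54 (SE 0.09, Benjamini-Hochberg adjusted p = 0.00313, edgeR). Removing any 1 of the 8 libraries left Bcl2 past the threshold, with adjusted p values from 0.00434 to 0.0138. On the authors' FPKM scale, which divides by gene length, Bcl2 averaged 14.3 ± 1.47 FPKM in EAF2Faslpr and 20.5 ± 1.29 FPKM in Faslpr libraries (SD, n = 4 each).

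Bcl2l2 (gene 12050), which encodes BCL-w, had 14.3, 8.79, 9.87 and 7.40 CPM in EAF2Faslpr replicates 1 to 4 and 11.9, 20.7, 23.4 and 18.1 CPM in Faslpr replicates 1 to 4. The groups overlapped only in that EAF2Faslpr replicate 1 lay above Faslpr replicate 1. The log2 fold change was −0.88 (SE 0.24, adjusted p = 0.0372, edgeR), resting on between 134 and 425 estimated reads per library. With 1 library removed, Bcl2l2 stayed past the threshold when that library was EAF2Faslpr replicate 1 (adjusted p = 0.0131) or Faslpr replicate 1 (0.0155), and missed it in the other 6 cases, at up to 0.104 without Faslpr replicate 2.

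The estimated length behind the Bcl2l2 values moved with the groups as well. Programs such as RSEM, which the submitters list, weight a gene's length by the estimated share of each transcript. This effective length, recovered as the estimated count over FPKM with the library total, was 1689, 1793, 1806 and 2002 bases in EAF2Faslpr replicates 1 to 4 and 2278, 1910, 2175 and 2076 bases in Faslpr replicates 1 to 4. The mean was thus lower in EAF2Faslpr libraries, with 1 library of each group inside the range of the other. The log2 ratio of the mean lengths was −0.21, while over 9670 genes with at least 1 FPKM in every library and at least 2 FPKM on average the 5th and the 95th percentile were −0.03 and 0.04. Per length, Bcl2l2 averaged 5.66 ± 2.02 FPKM in EAF2Faslpr and 8.86 ± 2.69 FPKM in Faslpr libraries (SD, n = 4 each). This log2 ratio of −0.65 is smaller than the difference in reads. The overlap was wider than in CPM, with EAF2Faslpr replicates 1 (8.46 FPKM) and 3 (5.56 FPKM) above Faslpr replicate 1 (5.12 FPKM). In the GENCODE M21 annotation (GRCm38), 594 exon bases of Bcl2l2 also belong to Gm20521, a protein-coding gene on the same strand. No gene of that symbol is among those with estimated counts, and reads from these bases cannot be assigned with certainty. The neighbour Pabpn1, which encodes a poly(A)-binding protein, differed by 0.02 on the log2 scale (adjusted p = 0.933, edgeR).

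**Figure D2:**
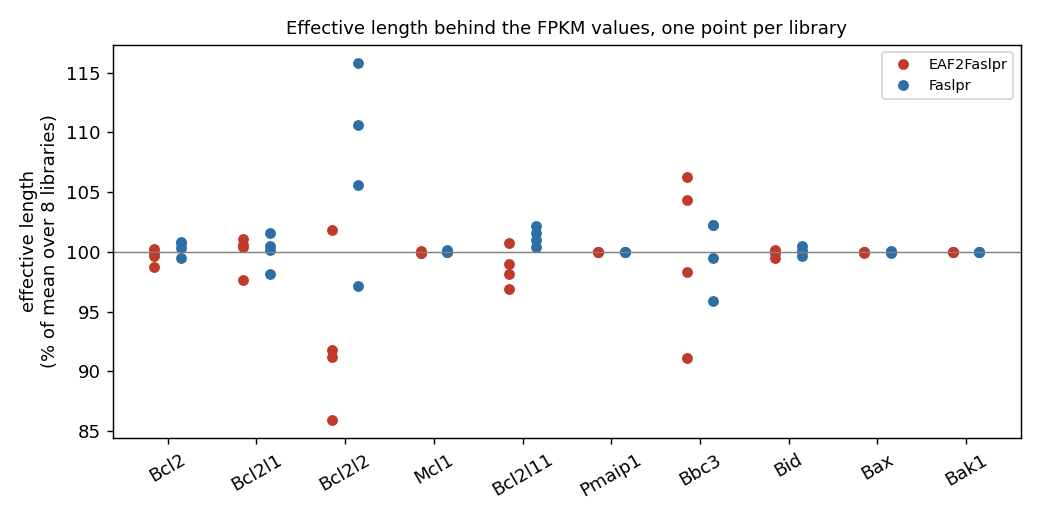
Effective length of each member in each EAF2Faslpr (red) and Faslpr (blue) library, as a percentage of that gene's mean over all 8 libraries. Bcl2l2 spreads the most, with EAF2Faslpr libraries from 1689 to 2002 bases and Faslpr libraries from 1910 to 2278 bases, and the lengths of Mcl1, Pmaip1, Bax and Bak1 hardly vary.

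Bcl2l1 (gene 12048), which encodes BCL-xL, was at 10.7, 12.5, 11.4 and 10.4 CPM in EAF2Faslpr replicates 1 to 4 and at 13.9, 12.6, 12.8 and 15.5 CPM in Faslpr replicates 1 to 4. Every EAF2Faslpr library lay below every Faslpr library, by a small margin between EAF2Faslpr replicate 2 and Faslpr replicate 2. The log2 fold change of −0.28 (SE 0.11) did not pass (adjusted p = 0.150, edgeR), nor did it with any 1 library removed. On the FPKM scale the groups of Bcl2l1 overlapped.

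Mcl1 (gene 17210), a short-lived survival protein that T cells need, had 839.9, 978, 1101 and 1015 CPM in EAF2Faslpr replicates 1 to 4 and 978, 958, 1003 and 972 CPM in Faslpr replicates 1 to 4. The Faslpr libraries lay close together, inside the wider range of the EAF2Faslpr libraries. The log2 fold change was 0.01 (SE 0.08, adjusted p = 0.961, edgeR), and its sign turned with no filter on low counts and without EAF2Faslpr replicate 3 or 4.

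Pmaip1 (gene 58801), the BH3-only gene that p53 and the stress factor ATF4 are known to induce, was at 72.1, 37.6, 45.9 and 55.8 CPM in EAF2Faslpr replicates 1 to 4, against 26.0, 24.0, 36.0 and 27.7 CPM in Faslpr replicates 1 to 4. The groups did not overlap, but EAF2Faslpr replicate 2 lay just above Faslpr replicate 3. The log2 fold change was 0.89 (SE 0.19, adjusted p = 0.0143, edgeR), with adjusted p values between 0.00720 and 0.0499 when each library was removed in turn, and 0.0827 without both replicates numbered 4. Without EAF2Faslpr replicate 1, the highest library, the log2 fold change was 0.71.

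Bcl2l11 (gene 12125), which encodes BIM, was measured at 36.6, 42.9, 37.8 and 40.8 CPM in EAF2Faslpr replicates 1 to 4 and at 48.8, 48.0, 40.0 and 42.2 CPM in Faslpr replicates 1 to 4. The groups overlapped, and the log2 fold change of −0.18 (SE 0.09) did not pass (adjusted p = 0.256, edgeR). Bid (gene 12122), which caspase-8 cleaves to link death receptors to mitochondria, spanned 29.9 to 34.5 CPM in EAF2Faslpr and 27.5 to 31.9 CPM in Faslpr libraries, with a log2 fold change of 0.10 (SE 0.08, adjusted p = 0.514, edgeR). Bbc3 (gene 170770), the p53 target that encodes PUMA, spanned 2.73 to 3.58 CPM in EAF2Faslpr and 3.03 to 4.90 CPM in Faslpr libraries. With between 50.1 and 91 estimated reads per library, its log2 fold change of −0.39 (SE 0.20, adjusted p = 0.268, edgeR) could not be told from the spread between replicates.

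The effectors gave no call. Bax (gene 12028) had 63.5, 62.8, 73.5 and 61.6 CPM in EAF2Faslpr replicates 1 to 4 and 77.0, 73.3, 61.5 and 92.3 CPM in Faslpr replicates 1 to 4, a log2 fold change of −0.22 (SE 0.12, adjusted p = 0.289, edgeR). Bak1 (gene 12018) had 77.6, 67.8, 59.8 and 64.7 CPM in EAF2Faslpr replicates 1 to 4 and 70.3, 63.3, 62.8 and 71.0 CPM in Faslpr replicates 1 to 4, with a log2 fold change of 0.01 (SE 0.09, adjusted p = 0.949, edgeR) whose sign turned with no filter on low counts. In EAF2Faslpr libraries Bax was 61.6 to 63.5 CPM apart from replicate 3. Values of both genes were mixed between the groups, with the highest Bax level in Faslpr replicate 4 and the highest Bak1 level in EAF2Faslpr replicate 1.

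**Figure D3:**
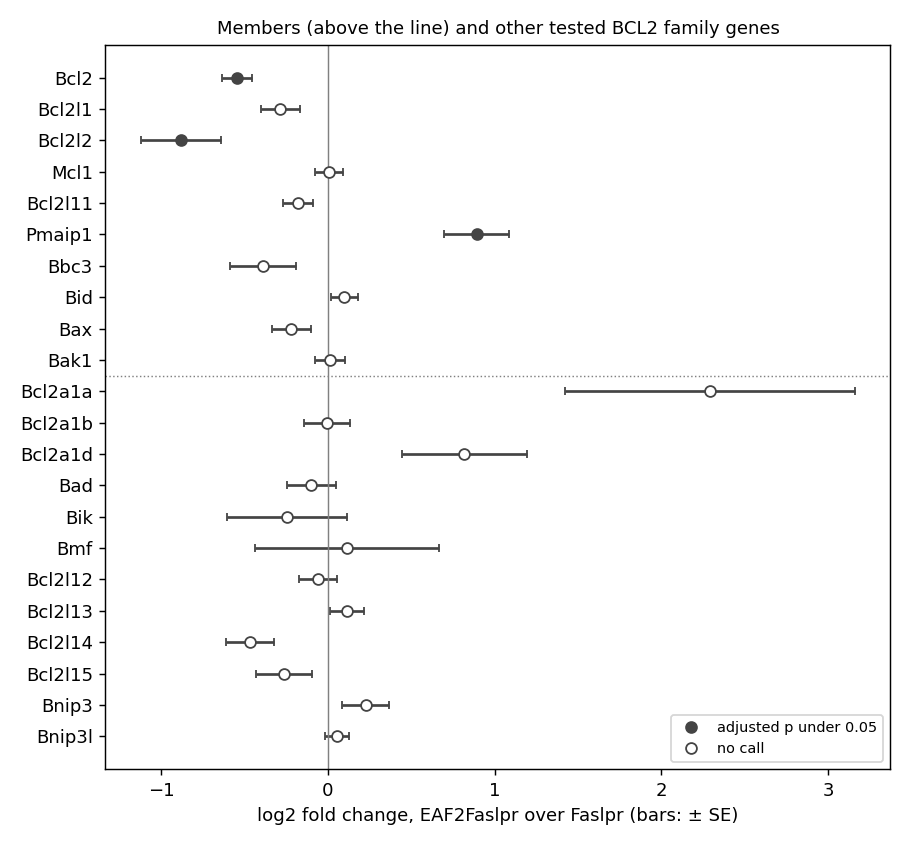
Log2 fold change of EAF2Faslpr over Faslpr with its SE (edgeR) for the 10 members, above the dotted line, and the 12 other tested BCL2 family genes. Filled points passed at an adjusted p under 0.05, which among these 22 genes were Bcl2 (−0.54), Bcl2l2 (−0.88) and Pmaip1 (0.89).

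The spread between replicates differed from member to member. Coefficients of variation of CPM in EAF2Faslpr libraries ran from 5.77% for Bid to 29.4% for Bcl2l2, with Pmaip1 at 28.1%. Within Faslpr libraries they ran from 1.89% for Mcl1 to 26.7% for Bcl2l2, and Pmaip1 was at 18.7%. EAF2Faslpr replicate 1 held the lowest level of all 8 libraries for Bcl2, Mcl1 and Bcl2l11 and the highest for Pmaip1 and Bak1. Faslpr replicate 4 held the highest level for Bcl2l1, Bbc3 and Bax and the lowest for Bid.

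Per length, the order of the members was headed by Mcl1 in both groups, at 286 ± 33.3 FPKM in EAF2Faslpr and 282 ± 6.10 FPKM in Faslpr libraries (SD, n = 4 each). Bax followed at 79.9 ± 7.43 FPKM in EAF2Faslpr and 92.1 ± 15.3 FPKM in Faslpr libraries, and Bak1 at 34.6 ± 3.70 FPKM in EAF2Faslpr and 34.0 ± 2.06 FPKM in Faslpr libraries. Bbc3 was last in every library, at 1.84 ± 0.320 FPKM in EAF2Faslpr and 2.38 ± 0.468 FPKM in Faslpr libraries.

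By group means, the middle of that order differed between the groups. Pmaip1 stood at place 4 in EAF2Faslpr libraries (20.4 ± 5.65 FPKM) and at place 6 in Faslpr libraries (10.9 ± 2.06 FPKM), whereas Bcl2 stood at place 6 in EAF2Faslpr and at place 4 in Faslpr libraries. In EAF2Faslpr replicate 2 Bcl2 (14.97 FPKM) was still above Pmaip1 (14.45 FPKM), so their ranges overlapped in EAF2Faslpr and did not in Faslpr libraries. Bid held place 5 in both, at 17.3 ± 1.07 FPKM in EAF2Faslpr and 16.0 ± 1.08 FPKM in Faslpr libraries. Values of neighbouring members overlapped between Pmaip1 and Bid, Bcl2l11 and Bcl2l2, and Bcl2l2 and Bcl2l1 in EAF2Faslpr libraries. In Faslpr libraries they overlapped between Pmaip1 and Bcl2l11, Bcl2l11 and Bcl2l2, and Bcl2l2 and Bcl2l1, so the order of these neighbours is not set. The mean order was the same with the authors' TPM values.

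**Figure D4:**
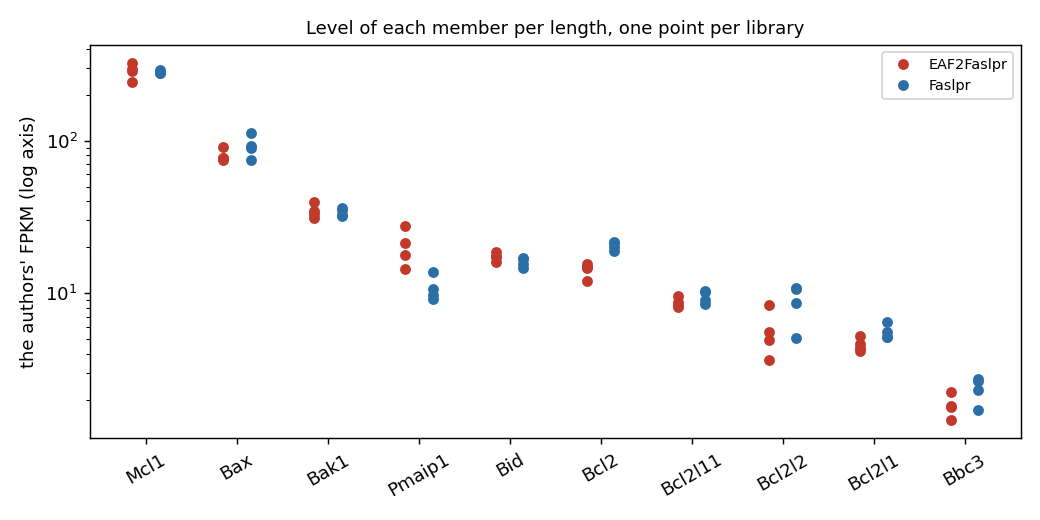
The authors' FPKM of each member in each EAF2Faslpr (red) and Faslpr (blue) library on a log axis, ordered by the EAF2Faslpr mean. Mcl1 (286 FPKM in EAF2Faslpr, 282 FPKM in Faslpr) leads in every library, and the means of Pmaip1 and Bcl2 trade places between the groups, though in EAF2Faslpr replicate 2 Bcl2 (14.97 FPKM) stays above Pmaip1 (14.45 FPKM).

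Summed by role, the survival genes came to 311 ± 33.1 FPKM in EAF2Faslpr and 317 ± 8.13 FPKM in Faslpr libraries (SD, n = 4 each). Mcl1 made up 92.0% ± 0.984 of that sum in EAF2Faslpr and 89.0% ± 0.840 in Faslpr libraries, so that without Mcl1 the sum was 24.6 ± 0.811 FPKM in EAF2Faslpr and 35.0 ± 3.23 FPKM in Faslpr libraries. BH3-only genes summed to 48.2 ± 4.63 FPKM in EAF2Faslpr and 38.8 ± 1.89 FPKM in Faslpr libraries, and the effectors to 115 ± 6.25 FPKM in EAF2Faslpr and 126 ± 17.1 FPKM in Faslpr libraries. Without Pmaip1 the BH3-only sum was 27.9 ± 1.38 FPKM in EAF2Faslpr and 27.9 ± 1.44 FPKM in Faslpr libraries. As shares of the 10 members, BH3-only transcripts were 10.3% ± 1.54 in EAF2Faslpr and 8.06% ± 0.526 in Faslpr libraries, while the survival share was 65.5% ± 3.05 in EAF2Faslpr and 65.8% ± 2.52 in Faslpr libraries. The difference in the survival sum turned its sign without EAF2Faslpr replicate 1 (0.03 in place of −0.03 on the log2 scale), and that in the effector sum was −0.05 without Faslpr replicate 4 and −0.21 without Faslpr replicate 3, in place of −0.13. These sums are descriptions without a test, since the members were chosen with results known.

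Ratios of opposed genes within a library are given in the same way. The FPKM ratio of Bcl2 to Bcl2l11 was 1.5, 1.56, 1.73 and 1.76 in EAF2Faslpr replicates 1 to 4 and 1.96, 2.06, 2.57 and 2.10 in Faslpr replicates 1 to 4, without overlap. The ratio of Mcl1 to Pmaip1 was 8.78, 19.6, 18.1 and 13.7 in EAF2Faslpr replicates 1 to 4 and 28.3, 30.1, 21.0 and 26.4 in Faslpr replicates 1 to 4, also without overlap. Both ratios were lower in each EAF2Faslpr library than in any Faslpr library. On the log2 scale the differences between group means were −0.40 for Bcl2 to Bcl2l11 and −0.87 for Mcl1 to Pmaip1, and those of Bcl2l1 to Bcl2l11 (−0.14), Bcl2 to Bax (−0.33) and Bax to Bak1 (−0.22) belonged to ratios that overlapped between the groups. With 1 library left out these last 3 differences moved by over 1.5 times, that of Bcl2l1 to Bcl2l11 to −0.05 without Faslpr replicate 4 and −0.22 without Faslpr replicate 2, that of Bcl2 to Bax to −0.21 without Faslpr replicate 3, and that of Bax to Bak1 to −0.13 without EAF2Faslpr replicate 1 and −0.33 without EAF2Faslpr replicate 3.

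**Figure D5:**
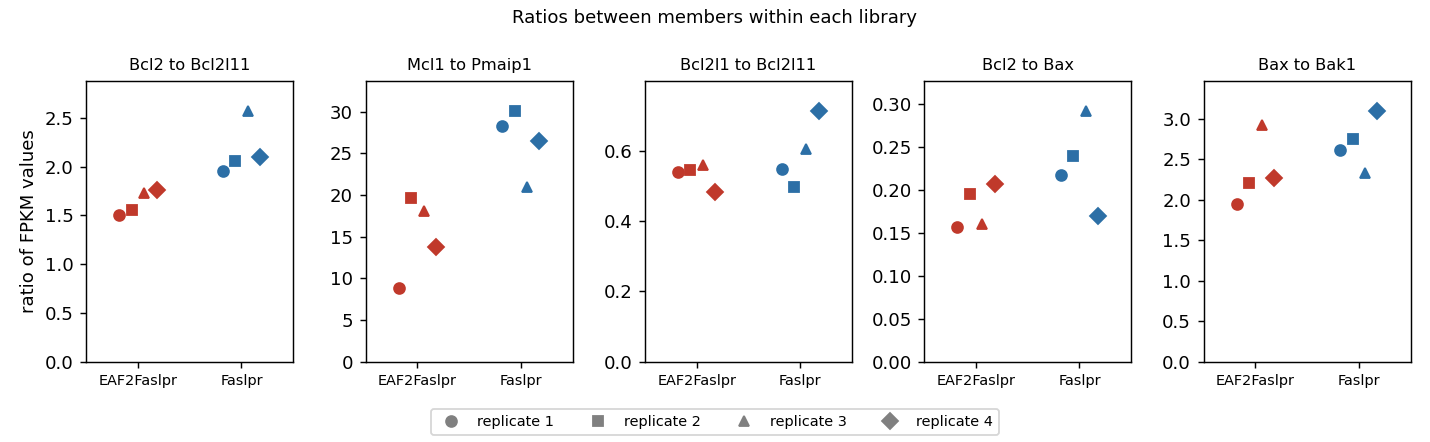
FPKM ratios of 5 pairs of members in each EAF2Faslpr (red) and Faslpr (blue) library, with 1 symbol per replicate number. Groups are apart for Bcl2 to Bcl2l11 (up to 1.76 in EAF2Faslpr, from 1.96 in Faslpr) and Mcl1 to Pmaip1 (up to 19.6 in EAF2Faslpr, from 21.0 in Faslpr).

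Other genes of the family gave no call. Of 16 listed, 12 could be tested, and 0 rose and 0 fell by edgeR (2 had an unadjusted p under 0.05, DESeq2 called 1 and limma-voom 0), with a median log2 fold change of 0.02. Beside this, edgeR called 7.14% of all 12340 genes tested higher and 4.96% lower, and 3070 of them had an unadjusted p under 0.05. Bcl2l10, Bok, Hrk and Bcl2a1c did not pass the filter, with at most 4.57 estimated reads in a library. Bcl2l14, a family member of less settled function, was the gene called by DESeq2, at 9.71 ± 0.974 CPM in EAF2Faslpr and 13.4 ± 2.33 CPM in Faslpr libraries (SD, n = 4 each; log2 fold change −0.47, SE 0.14, adjusted p = 0.0634 by edgeR and 0.0327 by DESeq2). Bcl2a1a, Bcl2a1b and Bcl2a1d, near-identical copies of the survival gene A1 that NF-kB induces, may share reads, and their separate values are uncertain. Bcl2a1b averaged 15.3 ± 1.62 CPM in EAF2Faslpr and 15.4 ± 2.43 CPM in Faslpr libraries (adjusted p = 0.985, edgeR), and Bcl2a1d 2.2 ± 1.08 CPM in EAF2Faslpr and 1.24 ± 0.363 CPM in Faslpr libraries (adjusted p = 0.210, edgeR). Bcl2a1a had 4.75, 0.491, 1.93 and 0.497 CPM in EAF2Faslpr replicates 1 to 4 and 0, 0.655, 0.275 and 0.592 CPM in Faslpr replicates 1 to 4, overlapping between the groups (adjusted p = 0.125, edgeR). Summed over the 4 copies, the level was 19.6 ± 2.42 CPM in EAF2Faslpr and 17.1 ± 2.70 CPM in Faslpr libraries. Bnip3l, a mitochondrial protein of mitophagy, was at 154 ± 4.63 CPM in EAF2Faslpr and 148 ± 12.4 CPM in Faslpr libraries (log2 fold change 0.05, adjusted p = 0.715, edgeR). Bmf, a BH3-only gene, varied from 0.834 to 5.10 CPM within the Faslpr group. Its log2 fold change of 0.12 (SE 0.55, adjusted p = 0.923, edgeR) could not be told from the spread between replicates.

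Among 37 genes known to act on the family's transcription, protein turnover or location, 36 were tested, and 5 rose and 1 fell by edgeR at an adjusted p under 0.05, with a median log2 fold change of 0.01. Of the 36, 12 had an unadjusted p under 0.05 by edgeR. The CPM ranges of the groups lay apart for 7 on the higher side and 2 on the lower side. Over all 12340 genes tested, 7.14% rose and 4.96% fell, and 3070 had an unadjusted p under 0.05 by edgeR. Whether the list differs from that background was not tested. Transcription factors accounted for 4 of the 5, of 13 tested, and no listed partner at mitochondria or endoplasmic reticulum passed by edgeR (0 of 11, of which 3 had an unadjusted p under 0.05). Limma-voom called 0 of these partners, and DESeq2 called 1, Itpr3, an inositol trisphosphate receptor.

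Pim1, a kinase that phosphorylates BAD and favours survival, had the smallest p of the list and was at 88.6, 77.7, 77.8 and 82.1 CPM in EAF2Faslpr replicates 1 to 4, against 40.5, 45.1, 52.6 and 53.5 CPM in Faslpr replicates 1 to 4. The groups were well apart, with a log2 fold change of 0.77 (SE 0.10, adjusted p = 0.000903, edgeR). Rel, the NF-kB subunit c-Rel that drives Bcl2l1 and A1 in lymphocytes, rose to 127 ± 7.24 CPM in EAF2Faslpr, against 80.5 ± 16.8 CPM in Faslpr libraries (log2 fold change 0.65, SE 0.13, adjusted p = 0.0102, edgeR). Pim1 and Rel both passed whichever of the 8 libraries was removed.

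Atf4, the integrated stress factor, was at 202, 226, 267 and 250.3 CPM in EAF2Faslpr replicates 1 to 4 and at 146, 177, 159.8 and 196 CPM in Faslpr replicates 1 to 4 (log2 fold change 0.48, SE 0.11, adjusted p = 0.0191, edgeR). Its target Ddit3, which encodes CHOP, a factor known to induce Bcl2l11 and to repress Bcl2, was at 48.1 ± 4.30 CPM in EAF2Faslpr and 37.0 ± 4.54 CPM in Faslpr libraries (log2 fold change 0.38, adjusted p = 0.0385, edgeR). Neither gene overlapped between the groups, but of the 8 fits with a library removed Atf4 missed the threshold in 3 (at most 0.0558, without EAF2Faslpr replicate 4) and Ddit3 in 5 (at most 0.117, without Faslpr replicate 2). Stat5b, which carries cytokine signals that sustain Bcl2, rose 1.24-fold (adjusted p = 0.0307, edgeR) and missed it in 6 (at most 0.0898, without Faslpr replicate 2). With the replicate number as a block its adjusted p was 0.0716. Ywhaz, a 14-3-3 protein that holds phosphorylated BAD, was 1.16-fold lower (adjusted p = 0.0477, edgeR) and with a library removed passed only without Faslpr replicate 3, at up to 0.122 otherwise.

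Other known regulators of members did not pass. Foxo3, which induces Bcl2l11, was at 49.1 ± 7.47 CPM in EAF2Faslpr and 59.2 ± 2.23 CPM in Faslpr libraries (log2 fold change −0.27, SE 0.11, adjusted p = 0.147, edgeR), and its groups did not overlap. Trp53, which induces Pmaip1, Bbc3 and Bax, was at 173 ± 9.12 CPM in EAF2Faslpr and 193 ± 26.7 CPM in Faslpr libraries (log2 fold change −0.16, SE 0.10, adjusted p = 0.358, edgeR). Stat5a lay on the higher side, at 93.0 ± 13.7 CPM in EAF2Faslpr and 75.5 ± 8.81 CPM in Faslpr libraries (log2 fold change 0.30, SE 0.12, adjusted p = 0.129, edgeR). Its groups overlapped.

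Genes whose log2 CPM followed a called member most closely over the 8 libraries were named by Pearson's r among tested genes averaging at least 5 CPM. Predicted and clone-named genes and the T cell receptor and immunoglobulin segments were left out of this ranking. It is a description, since a shared difference between the groups raises r. Bcl2 was followed most closely by Ezh1 (r = 0.98) and Ank (r = 0.98), Bcl2l2 by Cd82 (r = 0.96) and Fastkd1 (r = 0.95), and Pmaip1 by Zscan12 (r = 0.98) and Cd4 (r = 0.98). Ezh1, a histone methyltransferase, was at 105 ± 11.3 CPM in EAF2Faslpr and 154 ± 6.02 CPM in Faslpr libraries, and Cd4, the T cell coreceptor, at 98.4 ± 31.7 CPM in EAF2Faslpr and 36.3 ± 14 CPM in Faslpr libraries (SD, n = 4 each).

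Overlapping annotation touches several further members. By GENCODE M21, 558 exon bases of Bcl2 are shared with an antisense transcript and 628 of Bid with Bcl2l13 on the opposite strand. Bax shares 192 with Gm45808 on the same strand. Bak1 shares 437 with Ggnbp1 on the opposite strand, and 177 with another entry of that symbol and strand. The antisense transcript (D630008O14Rik) and Gm45808 are not, under these symbols, among the genes with estimated counts. Neither labels nor processing notes state whether counting used strand, so reads of the opposed genes cannot be told apart. Ggnbp1 held at most 57 estimated reads in a library, against at least 1063 for Bak1. Bcl2l13 held more than Bid, with 1125 to 1382 estimated reads per library against 487 to 631 for Bid.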

How the data were processed

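RNA from sorted B220+CD3+ spleen cells was extracted with TRIzol and sequenced on DNBSEQ, per the labels' protocols. The authors deposited 1 table that holds an estimated count per gene and library, which need not be whole, with FPKM (per length and library total) and TPM (per length, summing to the same total in each library). RSEM 1.3.1, Bowtie2 2.4.5, HISAT2 2.2.1 and build GRCm39 are listed in the submitters' processing notes, without saying what each did, and no source used names the annotation. A further 8 per-sample columns were not used.

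Groups and replicate numbers came from the titles. Estimated counts were rounded, filtered with edgeR's filterByExpr and scaled by TMM. Differences were tested with edgeR 4.0.16 (glmQLFit, glmQLFTest; R 4.3.3), two-sided, over all 8 libraries without covariates, with Benjamini-Hochberg adjustment over 12340 genes. SE is the absolute log2 fold change over the square root of F. Fold changes are EAF2Faslpr over Faslpr. In simulated data of this comparison (12235 genes) edgeR recovered 68% of changes of 1.5-fold and 86% of 2-fold changes, and called 9 unchanged genes. Only 200 genes were changed there, all averaging at least 5 CPM, whereas 1493 genes were called in the data. These shares thus do not cover genes at lower levels, such as Bbc3. The authors' FPKM and TPM served for levels between genes.

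Replicates of a group differed beyond sampling noise (chi-square per degree of freedom from 8.97 to 35.1). Other settings were RLE factors, no filter, DESeq2 1.42.0, limma-voom (limma 3.58.1), a replicate block, each library left out, and both replicates 4 left out. The members, lists and tests were chosen with earlier results of these data known. Named genes were the members, called regulators by smallest p, marker genes, and the 2 most correlated genes per called member. Foxo3, Trp53, Stat5a, Itpr3, Bcl2l13, Bcl2l14, Bnip3l, Bmf, Pabpn1 and Ggnbp1 were named after their values were seen. Counting intervals and floors cover counting error only.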

Additional observations from a re-analysis of the deposited data

Results flagged for a closer look

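A library was singled out where its gap to the nearest of the other 3 in its group exceeded Dixon's critical share of the group's range. Of 86 such checks 6 stood out, where chance gives about 1 in 20. Among the members this was Bax, at 73.5 CPM in EAF2Faslpr replicate 3 and 61.6 to 63.5 CPM in the other EAF2Faslpr libraries. The same library stood out high for Ms4a1 (64.9 CPM, others up to 36.9 CPM), Pax5 (48.3 CPM, others up to 27.6 CPM), Cd3d (296 CPM, others up to 259 CPM) and the summed neutrophil markers (78.5 CPM, others up to 16.3 CPM). Faslpr replicate 4 stood out for Cd3g, at 374 CPM against up to 299.6 CPM in the other Faslpr libraries. Without EAF2Faslpr replicate 3, Bcl2 and Pmaip1 kept their calls, and Bcl2l2 did not (adjusted p = 0.0886, edgeR) at nearly the same fold (log2 −0.87, against −0.88 with all libraries).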

How the results depend on the processing

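Bcl2 passed in every setting run, and Pmaip1 in every one except without both replicates numbered 4, where the count of members higher was 0 in place of 1 and of members lower 1 in place of 2. With the replicate number as a replicate block, 1 member fell in place of 2, as Bcl2l2 kept its fold (log2 −0.89, against −0.88) but no longer passed (adjusted p = 0.0828, edgeR), and 0 regulators fell in place of 1; Stat5b also missed the threshold (0.0716; 0.132 without both replicates 4), while 5 regulators still rose, not all the same genes. Deviations of same-numbered libraries from their group means correlated at 0.128, 0.168, 0.0639 and −0.0501, and the highest correlations with another number were 0.0475, 0.0426, 0.163 and 0.101. Numbers 1 and 2 thus went best with their own number and 3 and 4 with another, and since not every pair was over 0.1 the numbers were not taken to pair the samples. Leaving out each library gave 1 to 2 members lower and 1 higher, 0 to 1 other family genes lower, 2 to 6 regulators and partners higher and 0 to 1 lower, 2 to 4 T cell markers higher and 0 to 1 lower, 1 to 2 plasma markers lower, 0 to 2 neutrophil markers higher, and 372 to 659 of all genes lower (372 without Faslpr replicate 2). Without both replicates 4, 3 regulators were higher and 403 of all genes lower. DESeq2 called 1 other family gene lower, 1 T cell marker lower and 2 plasma markers lower, and with no filter on low counts or by limma-voom 0 regulators fell. The direction turned, without a call, for Mcl1 (−0.00420 with no filter, −0.00983 without both replicates 4, and −0.0517 to 0.0779 with a library left out), Bak1 (−0.000622 with no filter, −0.0604 to 0.0653), Bcl2a1b (0.000704 with the block, 0.118 without both replicates 4, −0.110 to 0.0569) and Cd3d (−0.00765 with no filter, −0.0485 to 0.0505). Differences of FPKM sums and ratios moved by less than 1 within-group SD (pooled over both groups) with TPM, a library left out or, for ratios, TMM-scaled CPM, all chosen after seeing the data; the survival sum turned sign without EAF2Faslpr replicate 1 (0.0344 in place of −0.0340). Length-scaled CPM was not run, since the table used has no length column. The cause of these shifts was not tested. Counting error is largest where reads are few, as for Bbc3 (50.1 to 91 estimated reads).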
